A study of Arabidopsis thaliana with 36 samples.

Results

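The nuclear genes for the photosynthetic apparatus were followed in *Arabidopsis thaliana* seeds that lack functional histone H3.3 (h3.3ko) and in wild-type Col seeds. The genes were taken by locus identifier from a fixed list and kept where at least 3 libraries reached 1 TPM, a read density per gene scaled to the same total in every library. All 57 listed genes passed, out of 19052 genes that passed the same filter and 27655 in the table. They comprise 6 light-harvesting genes of photosystem I (LHCI), 15 light-harvesting genes of photosystem II (LHCII), 12 genes for photosystem I subunits, 11 for photosystem II subunits, 8 for electron carriers and ATP synthase, and 5 for Rubisco and its activase. The h3.3ko seeds carry genome-edited alleles of HTR4 and HTR5 and a T-DNA insertion in HTR8, the genes that encode H3.3. Their mothers were h3.3ko but heterozygous for a construct with wild-type HTR5 and a separate red fluorescent seed marker. The h3.3ko seeds were picked for absence of that fluorescence, so the maternal seed coat around them came from a complemented plant. Both genotypes were sampled as mature dry seeds (MS), in the cold after S12h, S24h and S48h of stratification, and after G12h and G24h in warmth and light, with the number giving the hours. Each of the 12 groups had 3 libraries, which the study describes as independent biological replicates. The study describes germination as finished in Col, but not in h3.3ko, by G24h. LHB1B1, LHCB2.1, LHCB2.2 and PSAG passed the filter only through the 3 Col libraries of G24h. CAB2 and LHCB2.3, with 4 libraries at 1 TPM or more, and PSBQ-2, with 5, would not have passed without that group either. The higher level of all these genes in that group is therefore not independent of the filter. They are counted in every total that involves that group.

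Oxygenic photosynthesis couples photosystem II, which oxidises water, to photosystem I, which reduces ferredoxin, through the cytochrome b6f complex and plastocyanin. Chlorophyll a/b-binding proteins feed light energy into both photosystems, and the ATP and NADPH that result drive carbon fixation by Rubisco. The core subunits that bind the reaction-centre pigments are encoded in the plastid, whereas the antenna proteins, the peripheral subunits and the small subunit of Rubisco are encoded in the nucleus. Nuclear photosynthesis genes are textbook examples of light-induced genes in seedlings, and embryos of many plants, Arabidopsis included, are green in mid-development before the seed dries.

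The libraries held between 17001251 and 19299418 reads assigned to nuclear genes, as recovered from the steps of the TPM values. The deposited TPM divide by the whole genomic span of a gene, introns included, so differences were tested for the same gene between samples, and the shares of a class sum given for single genes depend on intron length as well. HTR8, which carries the insertion, averaged 2.02 TPM in h3.3ko and 137.2 TPM in Col mature seeds. Transcripts of the 3 H3.3 genes together were not absent, with a summed mean of 326.6 TPM in h3.3ko and 560.7 TPM in Col mature seeds. By the test described below, 2 of the 3 were lower there and 1 did not differ (log2 fold change 0.04). Seed storage protein transcripts, 9 genes of the embryo, made up 34.1% of all TPM in h3.3ko and 10.2% in Col at MS, and 17.2% in h3.3ko and 0.0323% in Col at G24h, so values were also computed without them. In whole seeds, fewer cells of a type and less RNA per cell cannot be told apart.

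A gene is described as called where limma gave an adjusted p under 0.05 and an absolute log2 fold change above 1 on the log2(TPM + 1) scale, which understates changes of genes near 0. The direction of the difference between h3.3ko and Col turned round over the time course. In mature seeds 16 of the 57 genes were called higher in h3.3ko and 4 lower, with 8.55% and 10.6% of all tested genes called in those directions. At G24h 0 genes were called higher and 51 lower, with 9.63% and 29.4% of all tested genes called higher and lower. No gene had an unadjusted limma p under 0.05 on the higher side at G24h, and voom on the recovered reads called 0 as well. The median log2 fold change of the 57 genes was 0.52 in mature seeds, 0.50, 0.25 and -0.07 after S12h, S24h and S48h of cold, and -1.44 and -3.36 after G12h and G24h, beside medians over all tested genes that stayed between -0.39 and 0.00. Of the 57 genes, 17 were called higher at 1 or more time points and lower at 1 or more others, 37 were only ever called lower and 3 only ever higher. The matching shares over all tested genes were not computed, so these 3 counts have no background beside them.

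**Figure D1:**
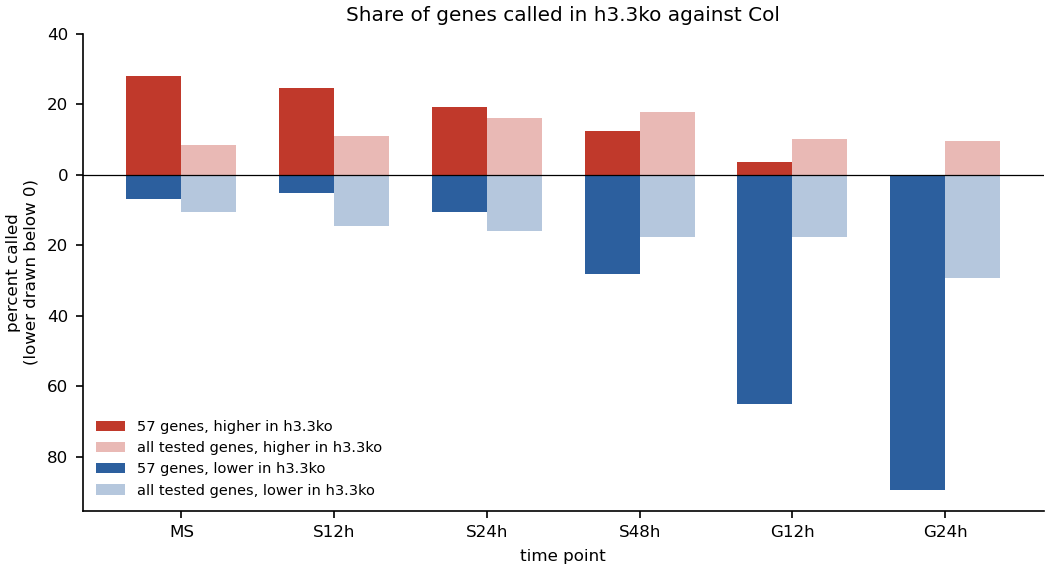
Percent of genes called (vertical axis) in h3.3ko relative to Col by time point (horizontal axis), upward bars for higher and downward bars for lower, with the 57 photosynthesis genes in full colour left of all 19052 tested genes in pale colour. The share of the photosynthesis genes called lower was 7.02% at MS and 89.5% at G24h.

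**Figure D2:**
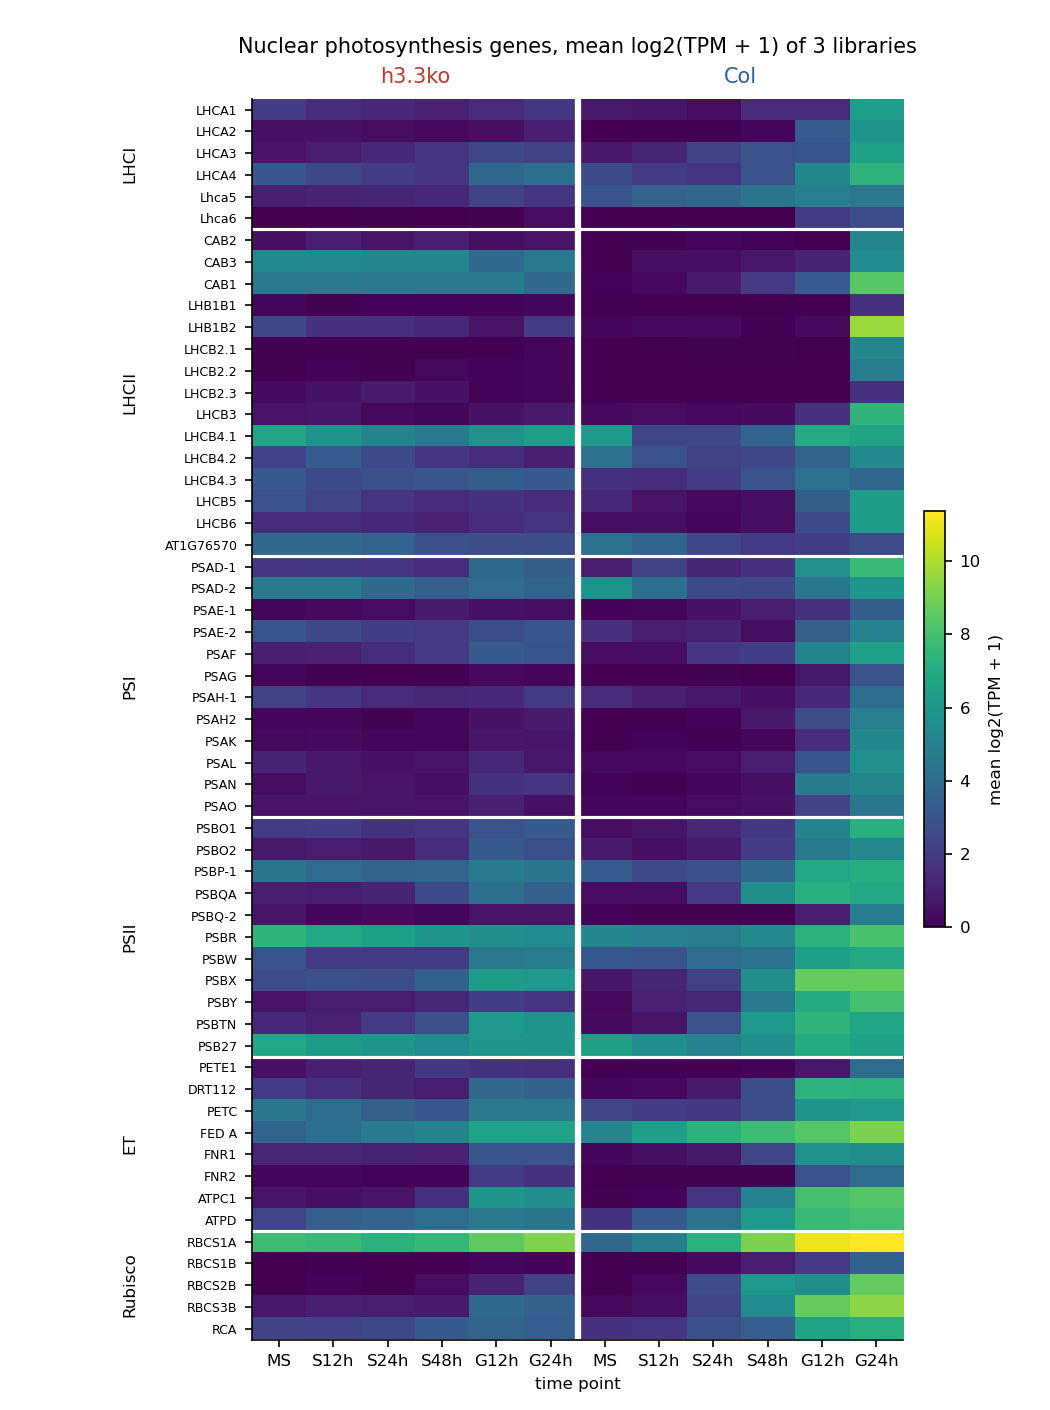
Mean log2(TPM + 1) of 3 libraries (colour) for each of the 57 genes (rows, grouped by class) in h3.3ko (left 6 columns) and Col (right 6 columns) from MS to G24h. From MS to S48h the CAB3 and CAB1 rows were brighter in h3.3ko than in Col, and most rows were brightest in Col at G24h.

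Mature h3.3ko seeds carried transcripts of antenna genes that were nearly undetected in mature Col seeds, and more of the Rubisco gene RBCS1A, which mature Col seeds also held. The largest differences were those of CAB3 and CAB1, neighbouring genes for the major LHCII protein Lhcb1. CAB3 (AT1G29910) was at 43.0, 40.4 and 39.8 TPM in h3.3ko, against 0.07, 0 and 0 TPM in Col. That is 1692 reads over the h3.3ko libraries and 1 read over the Col libraries, a ratio of 1776.3 with a 95% exact counting interval of 318.4 to 70201.9. On the log2(TPM + 1) scale the difference was 5.36 ± 0.13 (SE, n = 3 each, limma adjusted p = 3.13e-25). CAB1 (AT1G29930) was at 23.6, 22.6 and 22.6 TPM in h3.3ko, against 0.0696, 0.142 and 0.0663 TPM in Col, a log2 fold change of 4.45 ± 0.09 (SE, adjusted p = 7.61e-27). No h3.3ko library came near a Col library for either gene. CAB2, which lies between them, was at 0.380 TPM in h3.3ko and 0.0217 TPM in Col and was not called (0.43). It had 3, 6 and 8 reads in the h3.3ko libraries and 1, 0 and 0 in the Col libraries. Under the alternative settings its log2 fold change reached 3.20.

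CAB3, CAB2 and CAB1 lie within a short stretch of chromosome 1, and their coding sequences are 95.6% to 96.4% identical, so reads that match more than 1 copy may have been split or lost and the division among them is uncertain. Their sum depends little on how reads were divided among them, since the spans that TPM divide by are 1223, 1314 and 1230 bases. Reads lost from every copy would be missing from the sum too. The sum was 66.8, 63.4 and 62.9 TPM in mature h3.3ko seeds, against 0.205, 0.142 and 0.0663 TPM in mature Col seeds. The 250 bases before the annotated starts of the neighbours that differed most at MS are shown, from RefSeq on TAIR10.1, so that they can be compared with the Rubisco and LHB1B2 promoters below. The CAB3 window is chr1:10473503-10473752 on the minus strand and the CAB1 window is chr1:10477635-10477884 on the plus strand. Neither holds any of the 4 motifs searched, so no letters are in capitals.
CAB3: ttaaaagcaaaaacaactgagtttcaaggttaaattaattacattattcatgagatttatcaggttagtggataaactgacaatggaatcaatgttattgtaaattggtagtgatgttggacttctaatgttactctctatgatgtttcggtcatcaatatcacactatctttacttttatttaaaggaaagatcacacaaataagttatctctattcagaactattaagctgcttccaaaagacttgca
CAB1: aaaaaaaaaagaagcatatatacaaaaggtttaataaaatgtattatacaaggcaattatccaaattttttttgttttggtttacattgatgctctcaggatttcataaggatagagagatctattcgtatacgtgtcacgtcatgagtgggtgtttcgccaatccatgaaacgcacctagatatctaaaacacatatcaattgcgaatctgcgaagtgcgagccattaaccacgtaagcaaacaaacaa

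Other LHCII genes moved the same way in mature seeds, though less. In that class 6 of 15 genes were called higher and 1 lower. LHB1B2, another Lhcb1 gene, averaged 4.40 TPM in h3.3ko and 0.162 TPM in Col, a difference of 2.21 ± 0.26 on the log2 scale (SE, adjusted p = 8.35e-09). LHCB5 and LHCB6, which encode the minor antenna proteins CP26 and CP24, were 1.55 and 1.06 higher, and LHCB4.3 was 1.59 higher. The LHCB6 call was lost without the third Col library (0.97). The gene called lower was LHCB4.2, a gene for the minor antenna CP29, at 3.70, 3.89 and 4.18 TPM in h3.3ko, against 19.2, 17.5 and 16.6 TPM in Col (-1.93 ± 0.27, adjusted p = 1.68e-07). Its paralogue LHCB4.1 was at 113.9, 100.7 and 89.0 TPM in h3.3ko, against 72.0, 76.6 and 58.9 TPM in Col, and was not called (0.54 ± 0.19, adjusted p = 0.0109).

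Rubisco, photosystem II and electron transport each had a leading gene of the same kind at MS. RBCS1A, a Rubisco small-subunit gene, was at 207.3, 218.6 and 237.3 TPM in h3.3ko, against 13.7, 12.6 and 14.3 TPM in Col (3.93 ± 0.08, adjusted p = 3.14e-27). It was the only Rubisco gene called and made up 97.9% of the summed level of that class in h3.3ko and 85.7% in Col. PSBR, a photosystem II subunit near the oxygen-evolving complex, was at 165.5, 166.4 and 175.7 TPM in h3.3ko, against 39.3, 37.2 and 34.6 TPM in Col (2.16 ± 0.08, adjusted p = 4.60e-21). PSBX, PSBO1 and PSBP-1 were called higher too, with log2 fold changes of 1.92, 1.54 and 1.07 (the last lost without the third Col library), and 0 of the 11 photosystem II genes were called lower.

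PETC, the Rieske iron-sulphur subunit of the cytochrome complex, was at 20.3, 22.2 and 20.8 TPM in h3.3ko, against 3.84, 4.17 and 4.37 TPM in Col (2.11 ± 0.11, adjusted p = 1.92e-17). The major plastocyanin gene PETE2, listed as DRT112, differed by 1.75 ± 0.17 and FNR1, a ferredoxin-NADP+ reductase, by 1.02, a call lost without the first h3.3ko library (0.97) or the second (0.99). The other plastocyanin gene, PETE1, had 17 reads over the h3.3ko libraries and 0 over the Col libraries, at least 5.95-fold higher with the Col group set to a floor of 3 reads in all. In photosystem I 1 gene rose, PSAE-2 (1.45 ± 0.20, adjusted p = 1.44e-07), and in LHCI 1, LHCA1 (1.28 ± 0.16, adjusted p = 2.07e-08).

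Besides LHCB4.2, 3 genes were called lower in mature h3.3ko seeds. Lhca5, a minor LHCI protein that links photosystem I to the chloroplast NADH dehydrogenase-like complex, was at 0.826, 0.983 and 1.15 TPM in h3.3ko, against 6.82, 6.17 and 6.49 TPM in Col (-1.92 ± 0.11, adjusted p = 1.30e-15). FED A, the major leaf ferredoxin gene, was at 11.5, 11.6 and 11.2 TPM in h3.3ko, against 36.9, 30.1 and 39.7 TPM in Col (-1.55 ± 0.10, adjusted p = 1.12e-14). These were the only 2 of the 57 genes called lower at all 6 time points. PSAD-2, a stromal subunit of photosystem I, averaged 24.8 TPM in h3.3ko and 55.4 TPM in Col (-1.13 ± 0.12), a difference that was -0.70 and no longer called once storage genes were left out of the TPM.

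All 3 h3.3ko libraries lay above all 3 Col libraries for 39 of the 57 genes at MS and below for 5, beside 32.1% and 36.6% of all tested genes. The count called higher, 16 as given, depended on the pseudocount and the scaling. It was 35 with a pseudocount of 0.1, 39 with voom on recovered reads, 25 with median-of-ratios scaling and 22 with storage genes left out. The background moved too. Of all genes called at MS, 44.5% were higher in the main fit. In those 4 settings the share was 51.1%, 58.9%, 55.2% and 72.4%, and voom called 6956 of 18893 genes in either direction. The endosperm markers EPR1, MAN7, EXPA2 and ZOU summed to between 1437.8 and 1983.4 TPM in the h3.3ko libraries and between 8373.4 and 10572.2 TPM in the Col libraries at MS, with 2 called higher and 1 lower of 3 tested and ZOU near 0 in both. Their part in the differences was not tested.

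**Figure D3:**
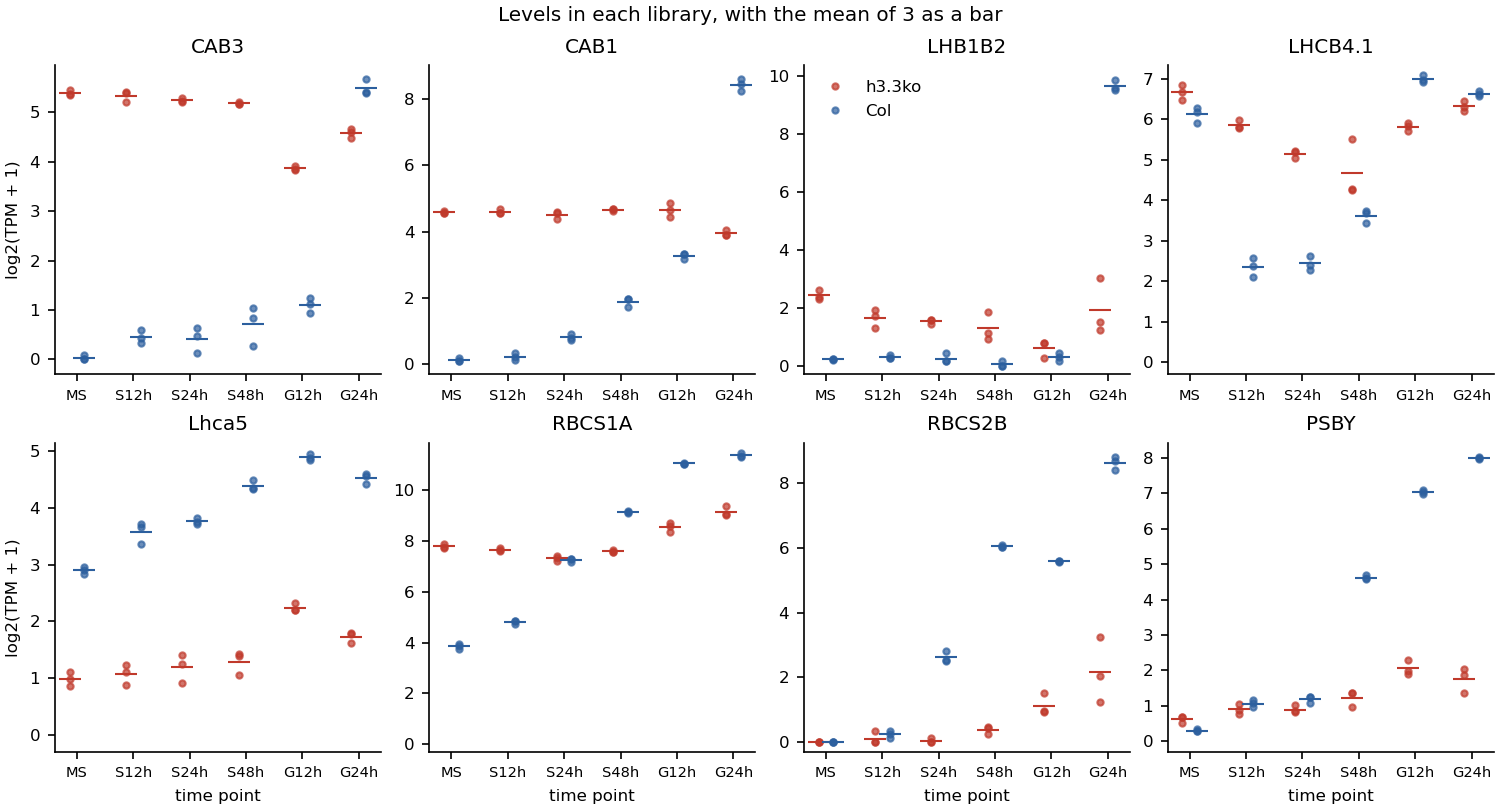
Level in each library (vertical axis, log2(TPM + 1)) of 8 genes at each time point (horizontal axis), h3.3ko left of Col at each time, with a bar at the mean of 3 libraries. Up to S48h the lowest h3.3ko library for CAB3 was at 34.7 TPM and the highest Col library at 1.07 TPM, whereas LHB1B2 reached 739.6 to 939.0 TPM only in Col at G24h.

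During stratification the 2 genotypes moved apart by gene. At S12h 14 genes were called higher in h3.3ko and 3 lower, with 10.9% and 14.6% of all tested genes called in those directions. Of the 16 genes higher at MS, 13 were still called higher. LHCB4.1 joined them, at 55.1, 54.6 and 62.3 TPM in h3.3ko, against 4.19, 3.31 and 5 TPM in Col (3.51 ± 0.19, adjusted p = 6.63e-17). The Col libraries were far lower there than at MS, while the h3.3ko libraries had kept most of their level. The genes called lower were Lhca5 (-2.50), FED A (-2.27) and PSBW (-1.04), a small photosystem II subunit whose call was lost once storage genes were left out (-0.79).

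At S24h 11 genes were called higher and 6 lower, and 16.1% of all tested genes were called in each direction. RBCS1A no longer differed beyond its error, at 161.1, 147.9 and 167.6 TPM in h3.3ko and 157.4, 143.7 and 154.4 TPM in Col (0.06 ± 0.08, adjusted p = 0.476). RBCS2B and RBCS3B were already lower in h3.3ko. RBCS2B was at 0, 0 and 0.0898 TPM in h3.3ko, against 4.79, 4.68 and 6.03 TPM in Col (-2.58 ± 0.24, adjusted p = 4.55e-11), and RBCS3B differed by -1.50 ± 0.14. LHCII remained the class with the most genes called higher, 7 of 15, among them LHCB4.1 (2.71 ± 0.19) and the antenna-related AT1G76570 (1.17 ± 0.14). PETE1 had 39 reads over the h3.3ko libraries and 0 over the Col libraries at that time, at least 11.8-fold higher by the same floor.

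By S48h the balance had turned, with 7 genes called higher and 16 lower in h3.3ko, and 17.8% of all tested genes called in each direction. The genes called higher were 5 LHCII genes, PSAE-2 and PETE1. CAB3 was still at 36, 34.9 and 34.7 TPM in h3.3ko, against 1.07, 0.2 and 0.798 TPM in Col (4.46 ± 0.13, adjusted p = 9.25e-24). LHCB4.1 was at 18.5, 18.2 and 44.8 TPM in h3.3ko, against 12.4, 11.9 and 9.78 TPM in Col, and its call (1.07 ± 0.19) was lost without the third h3.3ko library (0.65), without the third Col library (0.97) and with a replicate block. The LHB1B2 and LHCB5 calls at this time (1.25 and just above 1) were lost without single libraries as well.

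The endosperm markers moved with this turn, 3 of 3 tested being called lower at S48h, with a summed mean of 263.4 TPM in h3.3ko and 5397.2 TPM in Col, while neither tested seed coat marker was called. Their part in the differences was not tested.

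The 16 genes called lower at S48h were 3 Rubisco genes, 5 for photosystem II, 5 for electron transport and ATP synthase and 3 of LHCI, and 0 of LHCII or photosystem I. RBCS2B was at 0.358, 0.181 and 0.382 TPM in h3.3ko, against 67.7, 65.1 and 64.1 TPM in Col (-5.67 ± 0.24, adjusted p = 1.46e-19). RBCS3B was at 1.01, 0.637 and 0.605 TPM in h3.3ko, against 42.8, 45.4 and 43.7 TPM in Col (-4.69 ± 0.14, adjusted p = 1.66e-23). Even RBCS1A was now lower, at 187.2, 186.4 and 200.3 TPM in h3.3ko, against 548.3, 570.2 and 566.6 TPM in Col (-1.55 ± 0.08, adjusted p = 1.47e-17).

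Small photosystem II subunits and ATP synthase showed the same contrast at S48h. ATPC1, the gamma subunit of the chloroplast ATP synthase, was at 2.46, 1.1 and 2.40 TPM in h3.3ko, against 28.7, 31.3 and 36.3 TPM in Col (-3.50 ± 0.15, adjusted p = 1.48e-19). PSBY was at 0.940, 1.56 and 1.55 TPM in h3.3ko, against 23.0, 24.7 and 23.3 TPM in Col (-3.40 ± 0.12, adjusted p = 2.46e-21). PSBTN, the nuclear PsbT subunit, was at 6.55, 4.11 and 7.55 TPM in h3.3ko, against 66.3, 75.1 and 69.8 TPM in Col (-3.37 ± 0.18, adjusted p = 5.79e-17). For each of these 3 genes the highest h3.3ko library was far below the lowest Col library.

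The clustered Rubisco genes RBCS1B, RBCS2B and RBCS3B on chromosome 5 are 96.7% to 97.3% identical in their coding sequences, so their division is uncertain in the same way. Their sum at S48h was 1.37, 0.818 and 1.04 TPM in h3.3ko, against 111.7, 111.1 and 108.7 TPM in Col. Their spans of 2154, 1165 and 1655 bases differ, so this sum in TPM also changes with the division of reads. The windows of 250 bases before their starts are shown because these near-identical genes gave different values, although the division of reads bears on that difference. They are chr5:15385321-15385570 for RBCS1B, chr5:15382072-15382321 for RBCS2B and chr5:15378643-15378892 for RBCS3B, all on the minus strand of TAIR10.1, with matches to the searched motifs in capitals.
RBCS1B: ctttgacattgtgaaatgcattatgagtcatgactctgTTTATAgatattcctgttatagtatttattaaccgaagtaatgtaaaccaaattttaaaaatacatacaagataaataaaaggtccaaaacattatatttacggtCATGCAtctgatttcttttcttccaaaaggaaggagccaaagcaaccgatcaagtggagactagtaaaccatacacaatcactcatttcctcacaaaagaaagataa
RBCS2B: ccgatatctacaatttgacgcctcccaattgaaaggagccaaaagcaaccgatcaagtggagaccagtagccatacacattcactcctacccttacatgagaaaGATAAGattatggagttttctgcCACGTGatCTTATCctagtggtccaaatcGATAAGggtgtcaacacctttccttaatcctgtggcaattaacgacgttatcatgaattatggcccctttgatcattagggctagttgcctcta
RBCS3B: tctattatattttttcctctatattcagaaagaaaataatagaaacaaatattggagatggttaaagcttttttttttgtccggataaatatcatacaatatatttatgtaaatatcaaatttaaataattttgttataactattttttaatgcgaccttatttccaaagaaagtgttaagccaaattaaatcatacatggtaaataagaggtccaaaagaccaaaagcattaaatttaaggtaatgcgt

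The motifs, read on both strands, were the I-box core GATAAG and the G-box CACGTG, both known from light-responsive promoters, the RY element CATGCA known from seed-expressed genes, and the TATA box TATAAA. No pair of these matches overlapped in the windows shown. Of these 3 windows only that of RBCS2B holds the I-box core and the G-box. Its I-box matches begin 146, 115 and 94 bases before the gene start, with the G-box between the first pair at 123. The RBCS1B window ends in gataa, so a match that runs past its end would be missed. RBCS1B holds 1 RY element, 107 bases before the gene start, and RBCS3B holds 0 of the 4. The only match to TATAAA in the RBCS1B window is on the other strand, 212 bases before the gene start. Over all 57 genes 21.1% of windows held a G-box and 24.6% an I-box core, beside 6.49% and 12.3% of the windows of 27443 nuclear protein-coding genes. An RY element was in 10.5% of the 57 windows and 8.43% of all, and a TATA box in 43.9% and 47.3%. Annotated starts lie at different distances from the start codon, from 0 bases in LHCB2.3 to 437 in LHCA3 over the 57 genes. Among the windows shown the distance was 55 bases in LHB1B2, 256 in CAB3, 93 in RBCS2B, 165 in RBCS1B and 336 in RBCS3B. The windows therefore do not cover the same part of each promoter. These shares were not tested.

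**Figure D4:**
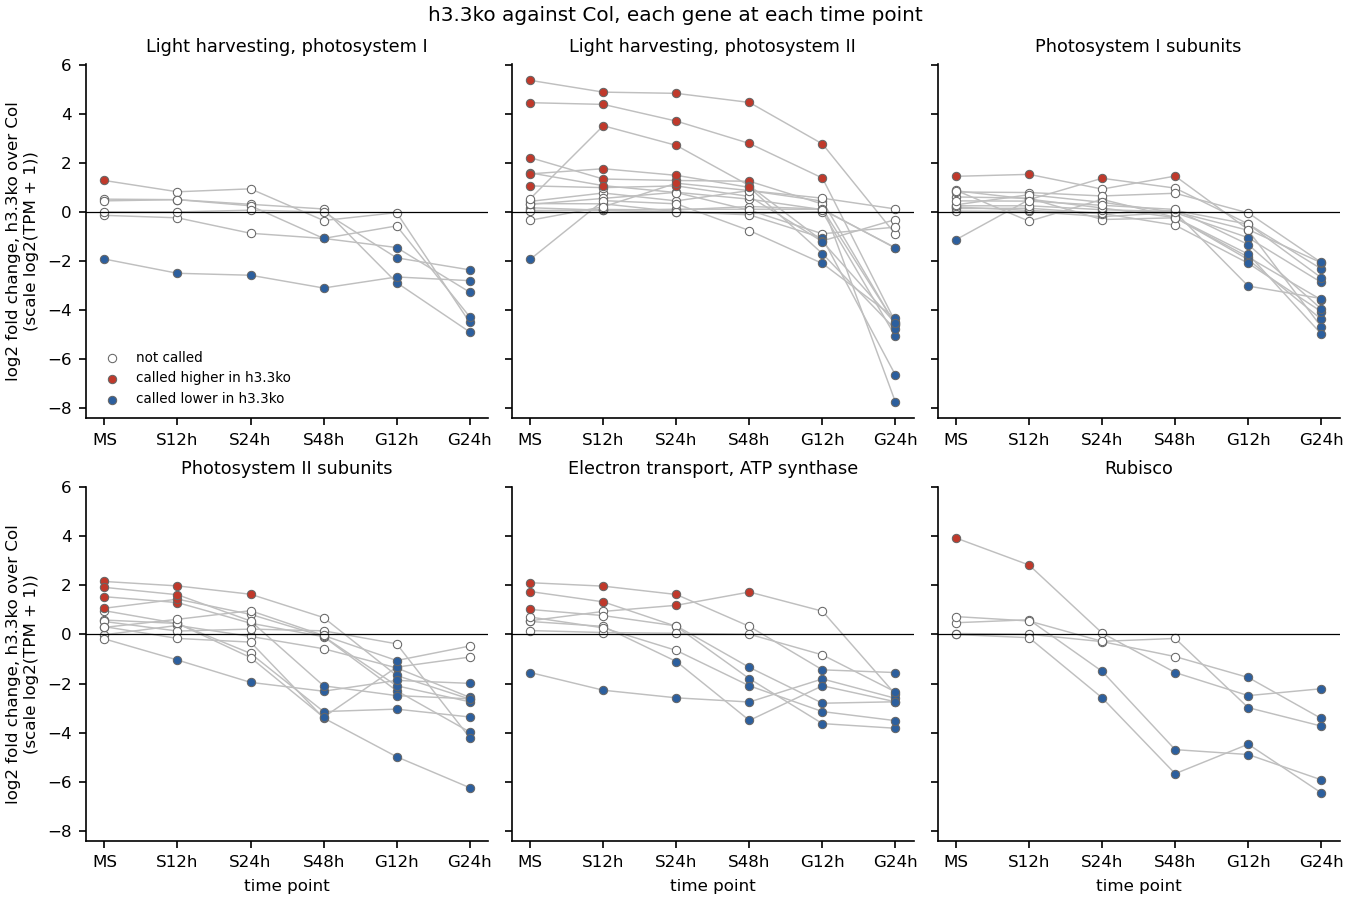
Log2 fold change of h3.3ko over Col on the log2(TPM + 1) scale (vertical axis) for each gene at each time point (horizontal axis), 1 panel per class, with lines joining the values of a gene and filled points for genes called higher (red) or lower (blue). In LHCII the values below 0 up to S24h were those of LHCB4.2 (-1.93) and AT1G76570 (-0.34) at MS and of LHCB2.1 (-0.01) at S24h, and at G24h the class spread between 0.12 and -7.75.

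After transfer to warmth and light most of the genes were lower in h3.3ko. At G12h 2 were called higher and 37 lower, with 10.2% and 17.6% of all tested genes called in those directions. Markers of other tissues were lower as well, 2 of 3 endosperm markers (489.9 TPM in h3.3ko and 5128.3 TPM in Col, summed means) and 2 of 2 seed coat markers (8.03 TPM in h3.3ko and 25.8 TPM in Col), and their part was not tested. The 2 higher genes were again CAB3, at 13.3, 13.5 and 14.1 TPM in h3.3ko against 1.19, 1.36 and 0.907 TPM in Col (2.77 ± 0.13), and CAB1 (1.38 ± 0.09). All 5 Rubisco genes, 10 of 11 photosystem II genes and 6 of 8 electron transport genes were called lower. PSBY showed the largest difference, at 2.75, 2.99 and 3.92 TPM in h3.3ko, against 136.5, 131.7 and 125.4 TPM in Col (-4.98 ± 0.12, adjusted p = 1.70e-25). RBCS3B averaged 13.2 TPM in h3.3ko and 413.5 TPM in Col (-4.89 ± 0.14), and the plastocyanin gene DRT112 12.5 TPM in h3.3ko and 164.1 TPM in Col (-3.63 ± 0.17). In photosystem I and LHCI the largest differences were those of PSAN (-3.02 ± 0.17) and LHCA2 (-2.88 ± 0.12). LHCB4.1 was now lower in h3.3ko, at 59.5, 56.5 and 51.3 TPM against 121.5, 125.7 and 135.4 TPM in Col (-1.18 ± 0.19).

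At G24h the largest differences of single genes were those of LHB1B2 and LHCB3, both of LHCII. All 6 LHCI genes, 11 of 15 LHCII genes, all 12 photosystem I genes, 9 of 11 photosystem II genes and all 8 electron transport and 5 Rubisco genes were called lower in h3.3ko. LHB1B2 was at 7.12, 1.33 and 1.84 TPM in h3.3ko, against 768.9, 739.6 and 939.0 TPM in Col (-7.75 ± 0.26, adjusted p = 1.98e-22). LHCB3, for the LHCII protein of the trimers next to photosystem II, was at 1.87, 0.535 and 0.216 TPM in h3.3ko, against 166.6, 161.2 and 199.9 TPM in Col (-6.65 ± 0.19, adjusted p = 2.32e-24). Seed coat markers also differed at this time, MUM2, MUM4 and 4 genes at or near 0 (BAN, TT12, TT10 and TT2) summing to between 5.99 and 6.74 TPM in h3.3ko libraries and between 57 and 66.8 TPM in Col libraries. From MS to G24h the mean of this sum rose from 2.65 to 63.1 TPM in Col and from 2.6 to 6.37 TPM in h3.3ko. It need not track the amount of seed coat tissue. Of the endosperm markers 2 of 3 were called lower (325.8 TPM in h3.3ko and 2006.6 TPM in Col, summed means). The part of both lists in these differences was not tested. The first h3.3ko library had the highest value for LHB1B2 and LHCB3, and also for RBCS2B at 8.54 TPM beside 1.38 and 3.13 TPM, but lay far below each Col library.

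The LHB1B2 window, the gene with the largest difference of the 57, is chr2:14523569-14523818 on the minus strand of TAIR10.1. It holds 1 match, a TATA box that begins 31 bases before the gene start, in capitals, and no I-box core, G-box or RY element.
LHB1B2: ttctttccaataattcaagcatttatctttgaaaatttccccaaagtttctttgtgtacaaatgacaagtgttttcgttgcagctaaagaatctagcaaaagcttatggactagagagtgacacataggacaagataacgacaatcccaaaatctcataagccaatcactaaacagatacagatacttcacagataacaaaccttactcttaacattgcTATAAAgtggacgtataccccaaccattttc

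In the other classes at G24h the largest differences were those of RBCS2B, which averaged 4.35 TPM in h3.3ko and 398.6 TPM in Col (-6.45 ± 0.24), PSBY with 2.45 TPM in h3.3ko and 255.3 TPM in Col (-6.24 ± 0.12), PSAL with 0.690 TPM in h3.3ko and 52.3 TPM in Col (-4.97 ± 0.15), LHCA2 with 1.04 TPM in h3.3ko and 59.2 TPM in Col (-4.89 ± 0.12), and DRT112 (-3.82 ± 0.17). Adjusted p for these 5 lay between 1.50e-19 and 2.96e-28. PSAL and LHCA2 encode a photosystem I subunit and a photosystem I antenna protein. Across the 57 genes 56 had all h3.3ko libraries below all Col libraries and 0 had them above, beside 57.1% and 26.9% of all tested genes.

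The 6 genes not called at G24h were CAB3, LHCB4.1, LHCB4.3, AT1G76570, PSBTN and PSB27. CAB3 was at 23.2, 24.4 and 21.3 TPM in h3.3ko, against 49.8, 41.2 and 41 TPM in Col (-0.91 ± 0.13, adjusted p = 2.12e-07), short of the fold required. Its neighbour CAB1 was at 13.9, 14.0 and 15.6 TPM in h3.3ko, against 352.7, 304.0 and 385.9 TPM in Col (-4.49 ± 0.09). LHCB4.1 averaged 79.3 TPM in h3.3ko and 98.3 TPM in Col (-0.31 ± 0.19, adjusted p = 0.124), although LHCB4.2 was among the genes called lower (-4.34). AT1G76570, which is related to the antenna genes, averaged 5.66 TPM in h3.3ko and 5.20 TPM in Col (0.12 ± 0.14, adjusted p = 0.450). PSB27, a photosystem II assembly factor that was already at 107.6 TPM in h3.3ko and 87.7 TPM in Col mature seeds, differed by -0.47 ± 0.07.

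**Figure D5:**
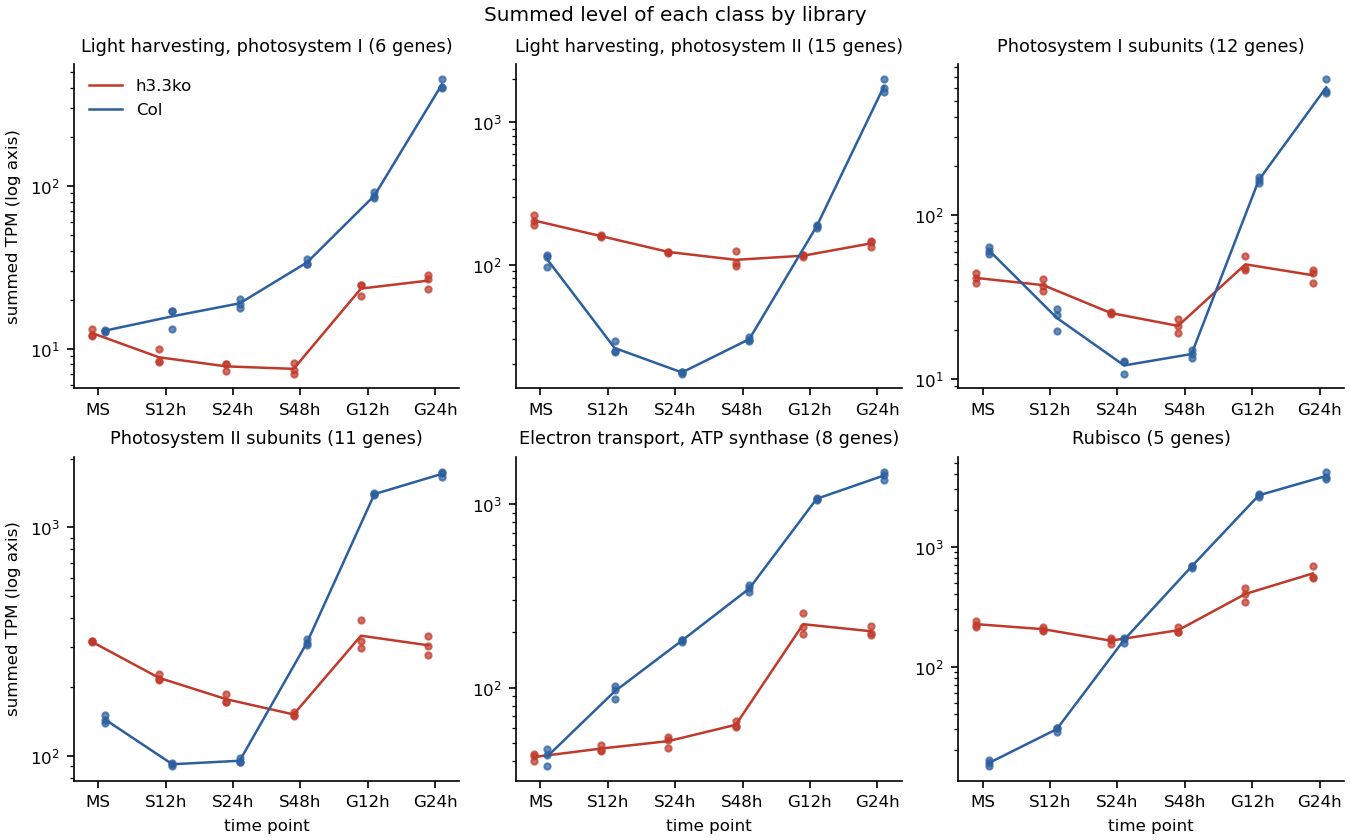
Summed TPM of each class (vertical log axis) by time point (horizontal axis), with a point per library and a line through the mean of 3, h3.3ko left of Col at each time. LHCII in h3.3ko moved between 108.2 and 204.7 TPM throughout, while in Col it fell to 17.5 TPM at S24h and reached 1794.4 TPM at G24h.

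The sums of each class, which weight genes by their level, differed in when they crossed. The LHCII sum was 204.7 ± 16.3 TPM in h3.3ko and 109.0 ± 11 TPM in Col at MS (SD, n = 3 each), 122.9 ± 1.35 TPM in h3.3ko and 17.5 ± 0.276 TPM in Col at S24h, and 141.0 ± 7.43 TPM in h3.3ko and 1794.4 ± 200.3 TPM in Col at G24h. CAB1 and CAB3 together made up 31.3% of it in h3.3ko and 0.104% in Col at MS, and 55.7% in h3.3ko and 11.2% in Col at S48h. The Rubisco sum was 225.8 ± 14.7 TPM in h3.3ko and 15.8 ± 1.05 TPM in Col at MS, overlapping at S24h with 165.9, 153.6 and 173.5 TPM in h3.3ko and 173.1, 157.9 and 171.1 TPM in Col. At G24h it was 597.4 ± 79.3 TPM in h3.3ko and 3882.3 ± 304.9 TPM in Col. The electron transport sum started level, with 41.9 ± 1.81 TPM in h3.3ko and 42.2 ± 4.42 TPM in Col at MS, where FED A carried most of it in Col, and was lower in every h3.3ko library than in every Col library from S12h on. All 57 genes together were at 842.1 ± 4.59 TPM in h3.3ko and 384.6 ± 9.72 TPM in Col at MS, and at 1315.0 ± 115.7 TPM in h3.3ko and 9845.8 ± 330.8 TPM in Col at G24h.

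Changes over time were also tested within each genotype. In Col 21 genes were called higher and 5 lower at S48h against MS, while 48.2% and 10.3% of all tested genes were called in those directions. The median over all genes was 0.92 on the TPM scale and 0.05 after median-of-ratios scaling, so changes during stratification are to be read against that shift. The genes that rose most were RBCS2B (6.06), PSBTN (5.80), PSBQA, an extrinsic subunit of photosystem II (5.28), RBCS1A (5.28), RBCS3B (5.25), ATPC1 (4.99) and PSBX (4.92), far above either shift. PSAD-2 and LHCB4.1 fell most (-3.34 and -2.50). In h3.3ko 6 genes were called higher and 12 lower over the same step, with 51% and 3.21% of all tested genes called and a median over all genes of 1.03, and the largest rise was that of ATPD at 1.67. Median-of-ratios scaling left 0 called higher and 26 lower in h3.3ko.

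The change differed between genotypes for many of these genes. The interaction of genotype and time from MS to S48h was called negative for 24 genes and positive for 4, with 16.9% and 19.5% of all tested genes called in those directions. Of the 21 genes that rose in Col, 5 also rose in h3.3ko, and 17 had a negative interaction. The Col change enters both the rise and the interaction, so this overlap is not separate support. The interaction was -5.67 ± 0.35 for RBCS2B, -5.48 ± 0.11 for RBCS1A, -4.34 ± 0.26 for PSBTN and -4.03 ± 0.21 for ATPC1. The 4 positive ones, PSAD-2 (2.1 ± 0.18), AT1G76570 (1.21 ± 0.20), LHCB4.2 and PETE1 (both 1.17), were genes that fell further in Col or, for PETE1, rose only in h3.3ko.

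On transfer to light and warmth both genotypes raised photosynthesis genes. At G12h against S48h 38 genes were called higher and 0 lower in Col, with 21.6% and 10.9% of all tested genes called in those directions. No gene was at an unadjusted limma p under 0.05 on the lower side there, and voom called 0. The largest rises were those of DRT112 (4.64) and PSAN (4.19). In h3.3ko 19 were called higher and 1 lower, with 8.97% and 6.64% of all tested genes called. ATPC1 rose by 4.38 ± 0.15, to 60.6 TPM at G12h against 1.99 TPM at S48h, and PSBTN by 3.32 ± 0.18, while CAB3 was the gene that fell (-1.31 ± 0.13). Of the 19 genes, 7 were of photosystem II and 6 of electron transport, and 1 each of LHCI, LHCII and Rubisco.

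The last step, to G24h, gave many calls in Col. From G12h to G24h 33 genes rose and 0 fell in Col, with 11.4% and 4.04% of all tested genes called higher and lower. At an unadjusted limma p under 0.05, 5 genes were lower, and voom called 0 lower. The genes that rose were 12 of 15 of LHCII, 4 of 6 of LHCI, 11 of 12 of photosystem I, 2 of 11 of photosystem II, 2 of 8 of electron transport and 2 of 5 of Rubisco. LHB1B2 was at 768.9, 739.6 and 939.0 TPM at G24h against 0.232, 0.340 and 0.118 TPM at G12h (9.37 ± 0.26, adjusted p = 4.87e-24). LHCB2.1 and LHCB2.2, for another major LHCII protein, had 0 reads at G12h and 1382 and 820 reads over 3 libraries at G24h, at least 456.4-fold and 270.8-fold higher with a floor of 3 reads in all. Both passed the filter only through these G24h libraries, so their rise is not independent of the filter.

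In h3.3ko the same step gave few calls. Only LHB1B2 (1.31 ± 0.26, adjusted p = 1.80e-04) and RBCS2B (1.05 ± 0.24, adjusted p = 8.60e-04) were called higher and 0 lower, with 0.299% and 0.467% of all tested genes called. Without the first h3.3ko G24h library 0 of the 57 genes were called higher, and fits over those 2 groups alone, with or without a replicate block, also called 0. At an unadjusted limma p under 0.05, 14 genes were higher and 13 lower, and voom called 5 higher and 0 lower. The interaction from G12h to G24h was called negative for 36 genes and positive for 0, with 13.8% and 3.64% of all tested genes called. At an unadjusted p under 0.05, 3 interactions were positive, and voom called 2 positive. All 33 genes that rose in Col had a negative interaction. The Col change enters both tests, so this overlap was partly fixed in advance, and its share over all genes was not computed. The interaction was -8.07 ± 0.37 for LHB1B2, -4.47 ± 0.22 for LHCA1, -3.92 ± 0.25 for PSAK, -3.82 ± 0.18 for PSBQ-2 and -3.39 ± 0.24 for PETE1. PSBQ-2 would not have passed the filter without the Col G24h libraries.

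Since h3.3ko seeds had not completed germination at G24h, they were also set against the earlier Col libraries of G12h. In this comparison 2 genes were called higher in h3.3ko and 35 lower, with 9.05% and 22.6% of all tested genes called in those directions. CAB3 (22.9 TPM in h3.3ko at G24h against 1.15 TPM in Col at G12h, 3.48 ± 0.13) and LHB1B2 (1.62 ± 0.26) were the higher ones. PSBY (-5.29 ± 0.12) and RBCS3B (-5.20 ± 0.14) were the lowest. Rubisco and photosystem II genes were still called lower in 5 of 5 and 9 of 11 cases, and LHCII genes in 3 of 15. This comparison uses the same h3.3ko G24h and Col G12h libraries as those above.

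The 57 genes did not share 1 profile. A profile was made as the mean z-score of the genes over the 36 libraries, and each gene was correlated with it, as a description of libraries that share time points and genotypes. LHCA2, PSAH2, PSAL and PSBO1 followed it most closely (r = 0.98 each). AT1G76570 ran against it (r = -0.41), and CAB3 (0.33), Lhca5 (0.45), PSAD-2 (0.47), PSB27 (0.51), LHCB4.2 (0.54) and LHCB4.1 (0.55) followed it least. Highest level over time also differed by genotype, falling at G24h for 48 genes, at G12h for 8 and at MS for 1 in Col, whereas in h3.3ko it fell at G12h for 24, G24h for 15, MS for 12, S48h for 4, and S12h and S24h for 1 each.

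Outside the list, the tested gene with the profile most like the mean was NPQ4, which encodes PsbS, the photosystem II protein for energy dissipation (r = 0.984 over 36 libraries). It averaged 2.32 TPM in h3.3ko and 97.0 TPM in Col at G24h. The next were AT2G42220 (0.983), the beta-galactosidase gene BGAL5 (0.980), MEB2 (0.979), and ZW9, WLIM2a and AT3G23470 (0.978 each). ABF3, a transcription factor of abscisic acid signalling, AT2G21850 and AT4G25900 closed the 10 most similar genes (0.977 each).

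Most genes for chlorophyll synthesis were called lower in h3.3ko at the later time points. Of 14 tested of 15 listed (GUN4 did not pass the filter), 2 were called higher and 1 lower in h3.3ko at MS, 2 higher and 9 lower at S48h, and 0 higher and 12 lower at G24h, beside the shares of all genes given above. PORB, a light-dependent protochlorophyllide reductase, averaged 1.18 TPM in h3.3ko and 135.7 TPM in Col at G24h (-5.97 ± 0.12), and CHLH, the large subunit of magnesium chelatase, 0.395 TPM in h3.3ko and 65.0 TPM in Col (-5.57 ± 0.09). HEMA2 and CAO went against the list. CAO, which makes chlorophyll b, was 1.12 lower at MS and 1.62 higher at S12h in h3.3ko, and HEMA2, a glutamyl-tRNA reductase, was 1.63 higher at S24h, and neither was called at G24h.

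Of 10 other Calvin cycle genes 6 were called higher in h3.3ko and 1 lower at MS, where 8.55% and 10.6% of all tested genes were called. The largest was PRK, phosphoribulokinase, with 7.91 TPM in h3.3ko and 0.150 TPM in Col (2.95 ± 0.11), and the lower one was PGK1 (-1.96 ± 0.09). At G24h 0 were called higher and 8 lower, beside 9.63% and 29.4% of all tested genes. TKL1, transketolase, was 1.64 ± 0.08 higher at MS and -3.46 ± 0.08 at S12h, where it averaged 127.5 TPM in h3.3ko and 1410 TPM in Col. The early light-induced genes ELIP1 and ELIP2 were called higher at S48h in h3.3ko and lower at G24h, ELIP2 with 1.99 TPM in h3.3ko and 260.8 TPM in Col (-6.46 ± 0.19).

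Among 12 regulators of plastid development, 1 was called higher and 2 lower at MS, and 1 higher and 7 lower at G24h. The shares over all tested genes were 8.55% and 10.6% at MS and 9.63% and 29.4% at G24h, so the counts at MS and the 1 higher at G24h are near the background. GLK1, an activator of antenna and chlorophyll genes, averaged 0.213 TPM in h3.3ko and 10.03 TPM in Col at G24h (-3.19 ± 0.12). GUN1, of plastid-to-nucleus signalling, was called lower at all 6 time points, with 5.92 TPM in h3.3ko and 28.3 TPM in Col at MS (-2.08 ± 0.09). The gene called higher at G24h was PIF1, a repressor of light responses in seeds, with 87.0 TPM in h3.3ko and 30.1 TPM in Col (1.5 ± 0.07). HY5, an activator of light responses, was 1.60 ± 0.12 higher at S48h. Of the 4 genes for antenna insertion into the thylakoid, 0 were called at MS and 3 were called lower at G24h, all but ALB3.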

How the data were processed

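RNA was sequenced from 36 libraries of h3.3ko and Col seeds, 3 for each genotype at each of 6 time points. The authors trimmed reads with fastp 0.20.1, aligned them with HISAT2 2.1.10 to TAIR10 and counted them with HTSeq 0.11.2, and DESeq2 1.26.0 is named in the submitters' processing notes. The deposited values are TPM, which the authors computed per gene and which sum to 1000000 in each library. Multiplied by each gene's genomic span, introns included, between 99.95% and 100.0% of low values in a library came out as whole reads within 0.02, which gave 17001251 to 19299418 reads per library. Counting intervals and the floor of 3 reads cover counting error only. The study names a directional kit only for separate strand-specific libraries and another kit for these, so reads of a gene and of an overlapping antisense gene cannot be told apart.

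Genes with at least 1 TPM in at least 3 libraries, 19052 in all, were tested with limma 3.58.1 (variance trend, R 4.3.3) on log2(TPM + 1), with 1 mean for each of 12 groups and Benjamini-Hochberg adjustment over all tested genes. A gene was called at an adjusted p under 0.05 and an absolute log2 fold change above 1, thresholds taken from the study's methods. Tests were two-sided. The alternatives were a pseudocount of 0.1, no filter, a filter at a mean of 5 TPM, median-of-ratios scaling, TPM without 9 storage genes, quantile normalization, voom on recovered reads, fits over the compared groups alone, a replicate block and leaving out each library. The limma procedure was tested on simulated data.

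The genes and lists were chosen with earlier results of these data known. Values per library were given for the genes with the largest change in each direction in each class and for genes that went against their class. For other lists, genes whose call differed from most of their list were named, with the largest differences added after their values were seen, and the 10 genes outside the list with the highest Pearson correlation with the mean profile. Promoter windows were read from RefSeq on TAIR10.1 for the genes that the results turn on.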

Additional observations from a re-analysis of the deposited data

Results flagged for a closer look

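Changes over time that differed between h3.3ko and Col by limma's interaction term are listed here, each as the h3.3ko change minus the Col change on the log2(TPM + 1) scale. From MS to S48h the interaction was called positive for 4 of the 57 genes and negative for 24, beside 19.5% and 16.9% of all tested genes. Among genes for which it was called, it was -1.63 for LHCA1, -1.66 for CAB1, -1.10 for PSAD-1, -4.34 for PSBTN, -4.03 for ATPC1 and -5.67 for RBCS2B, and 1.21 for AT1G76570, 2.1 for PSAD-2 and 1.17 for PETE1. From G12h to G24h it was called negative for 36 genes, beside 13.8% of all tested genes. It was -4.47 for LHCA1, -8.07 for LHB1B2, -3.92 for PSAK, -3.82 for PSBQ-2, -3.39 for PETE1 and -1.98 for RBCS2B. Groups of 3 libraries were not tested for single outlying libraries.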

How the results depend on the processing

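No call of the 57 genes reversed under any alternative run. Of 167 calls between h3.3ko and Col, 22 were lost at least once, not counting settings in which a gene was not tested. The count of genes called lower at G24h was 51 and lay between 47 and 52 without single libraries. Counts under 51 arose where a Col G24h library was left out. LHB1B1, LHCB2.1, LHCB2.2 and PSAG then no longer passed the filter and were not tested. No gene that was still tested lost its G24h call in this way.

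The pseudocount, the scaling and voom, which changes both, moved these counts. They moved the calls over all tested genes as well, so the counts below are not to be set against the shares given above. With a pseudocount of 0.1 the genes called higher were 35 at MS, 30 at S12h, 20 at S24h, 14 at S48h and 4 at G12h, and 10 were lower at S24h. With voom on recovered reads these counts were 39, 34, 23, 13, 4 and 10. Median-of-ratios scaling gave 25 higher at MS. In h3.3ko at S48h against MS, 15 were higher with a pseudocount of 0.1, 0 with median-of-ratios scaling or quantile normalization and 1 with voom, and 26, 28 and 36 were lower with those 3. In Col over that step 13 were higher with quantile normalization, and 8 were lower with a pseudocount of 0.1, 10 with median-of-ratios scaling, 9 with quantile normalization and 14 with voom. In h3.3ko at G12h against S48h 4 were lower with a pseudocount of 0.1 or voom. At h3.3ko G24h against Col G12h 6 were higher with a pseudocount of 0.1 and 10 with voom. The positive interactions from MS to S48h were 2 without storage genes, 1 with quantile normalization and 2 with voom, and those from G12h to G24h were 1, 1 and 2 with median-of-ratios scaling, quantile normalization and voom. Requiring a mean of 5 TPM, which tests fewer genes, left 18 higher in Col at G24h against G12h and 21 negative interactions over that step.

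With a replicate block, 0 genes were called higher in h3.3ko at G24h against G12h, as in a fit over those groups alone, against 2, with 5 for a pseudocount of 0.1 or voom and between 0 and 2 without single libraries. Same-numbered libraries deviated together beyond a correlation of 0.1 in every pair at S12h only (0.187 to 0.285), where the block gave the same counts of 14 and 3, so the numbers were not taken as pairs elsewhere. Over all genes the block left 4849 calls at S12h, against 4852.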
